A study of Mus musculus with 9 samples.

Results

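Inhibitory receptors are surface proteins that restrain a T cell's response to its antigen. Nascent transcription was examined here for 10 of their genes: Pdcd1, Havcr2, Lag3, Tigit, Ctla4, Cd244a, Cd160, Cd200r1, Btla and Vsir. They were chosen by name, with earlier results of these data known, and all 10 were found among the 37022 genes with a row in the deposited tables. Where a gene had several transcript rows, the row with the highest gene-body signal, averaged over the 9 libraries, stood for it. The libraries came from mouse CD8 T cells, which kill infected and tumour cells, in 3 groups of 3: Acute (acute stimulation), Chronic (chronic stimulation) and ChronicMEKi (chronic stimulation with inhibition of MEK, the kinase that activates ERK). Cells of every group were cultured with the uridine analogue 5-ethynyl uridine at 0.2 mM for 30 minutes, and the RNA made in that time was biotinylated, captured and sequenced. The mouse strain, the stimulus and its length, the inhibitor and its dose, and whether replicates came from separate mice or cultures are not given in the sources used here. The p-values below therefore measure only the spread between these libraries, which may be technical. In such bulk samples, fewer cells that transcribe a gene and less RNA per cell cannot be told apart.

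When antigen persists, T cells pass into a state called exhaustion, in which several inhibitory receptors are carried together and effector functions decline. PD-1 (Pdcd1) and BTLA recruit tyrosine phosphatases to their cytoplasmic tails, CTLA-4 competes with CD28 for the ligands CD80 and CD86, and TIGIT competes with the activating receptor CD226 for nectin-like ligands. Ctla4 and Pdcd1 are also induced on ordinary activation, so their transcription alone does not mark exhaustion. The RAS, MEK and ERK kinases form one of the main cascades that carry the T cell receptor's signal to transcription factors.

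The deposited values are signal, in a gene-body table and a pause-region table, the latter for the stretch near the transcription start. Each library's gene-body signal summed to between 48601757 and 52216192. Depth in reads is unknown, because what a step of the signal (0.764 to 1.06 between libraries) stands for is not given in the sources used here. Correlations of log2 signal across genes ran from 0.959 to 0.984 within groups and from 0.910 to 0.954 between them, and no library stood apart from its group. Ribosomal RNA-like rows held 19.1 to 22.3% of the gene-body signal in the Acute libraries, 34.2 to 40.6% in the Chronic and 29.0 to 36.1% in the ChronicMEKi libraries. Values below are therefore scaled by a trimmed mean of log ratios. Scaling by library totals instead moved the median gene by −0.49 on the log2 scale between Chronic and Acute and by 0.14 between ChronicMEKi and Chronic. The 8 CD8 T cell markers summed to 44276 to 52777 in the Acute, 44505 to 55116 in the Chronic and 45847 to 51348 in the ChronicMEKi libraries. Within that sum, 5 of the 8 were called lower in Chronic than in Acute by limma (Cd8a, Cd8b1, Lck, Cd3e and Cd2), from −2.07 for Cd8a to −0.38 for Cd2, and Gzmb was called higher (0.54, although not with library totals or the deposited scale). Between ChronicMEKi and Chronic 3 were called higher (Cd8a, Cd8b1 and Cd3e) and 0 lower. Cd8a had means of 4091 ± 406, 976 ± 184 and 2843 ± 313 (SD, n = 3). Sums for 7 myeloid and 5 natural killer cell genes did not pass 262 in any library, and Lyz2, Cd14, Ncr1 and Klra8 were near 0. Some markers of other cells moved between the groups. The B cell gene Cd79a averaged 338 ± 47.1, 107 ± 46.3 and 151 ± 68.5 (SD, n = 3) and was lower in Chronic than in Acute (−1.69, limma adjusted p = 0.00207). The natural killer cell gene Klre1 averaged 107 ± 65.9, 151 ± 8.18 and 39.7 ± 12.1 (SD, n = 3) and was lower in ChronicMEKi than in Chronic (−1.84, limma adjusted p = 0.00805). Of the CD4 T cell genes, Cd4 was lower in ChronicMEKi than in Acute (−1.92, limma adjusted p = 9.57e-05), and Zbtb7b was higher (1.14, limma adjusted p = 1.13e-05). The part of these markers' changes in the results was not tested.

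Between chronic and acute stimulation some receptor genes were higher and others lower. All 10 were called different in gene-body signal between Chronic and Acute by limma with Benjamini-Hochberg adjustment, against 33.3% of the 15942 genes tested. Because the members were chosen with earlier results of these data known, such shares here and below are descriptions only. Pdcd1, Havcr2, Lag3, Tigit and Cd200r1 were higher in Chronic (5 genes, background 17.9%), and Ctla4, Vsir, Cd160, Btla and Cd244a were lower (5 genes, background 15.4%). The groups did not overlap for any of the 10, as for 44.1% of all tested genes. Their median log2 fold change was 0.25, beside −0.01 for all genes. By library totals their median was −0.23, but that scaling also moved the median of all genes, by −0.49. The row the rule gives for Cd244a takes in another gene, and by its coding transcript Cd244a was higher rather than lower, as described below. The medians of the receptor genes use the rule's row (−0.98 for Cd244a), and would be higher with the coding transcript (1.02).

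**Figure D1:**
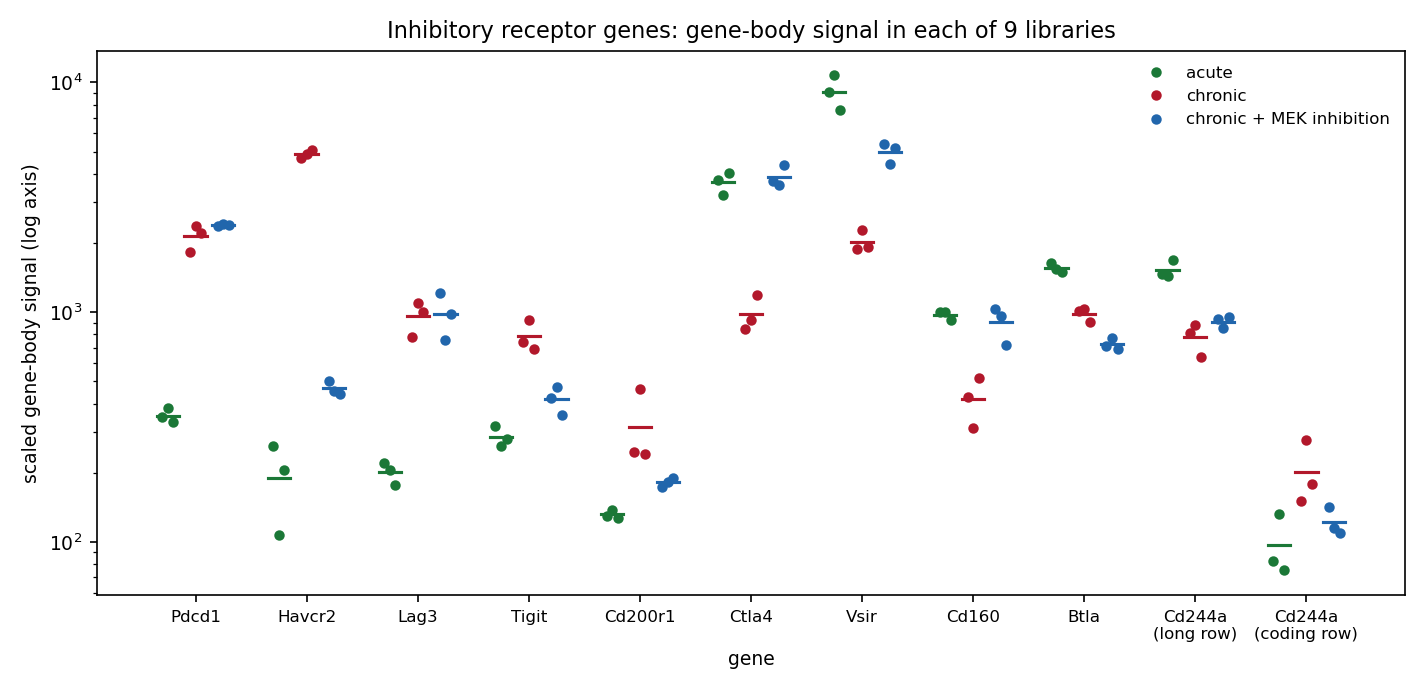
Scaled gene-body signal of the 10 receptor genes (and of the coding row of Cd244a) on a logarithmic axis, with 1 point per library, a bar at each group mean and colours for the 3 groups. Pdcd1 and Lag3 stand at one level in the Chronic and ChronicMEKi libraries, whereas Havcr2 falls from 4675 to 5099 in the Chronic to 441 to 504 in the ChronicMEKi libraries, and Ctla4 is lower in the Chronic than in the other 6 libraries.

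Havcr2 encodes TIM-3, a receptor of the immunoglobulin superfamily for galectin-9 and other ligands. Its scaled gene-body signal was 260, 107 and 205 in the Acute libraries, 4675, 4900 and 5099 in the Chronic and 504, 452 and 441 in the ChronicMEKi libraries. Every Chronic library was far above the other 6, and every ChronicMEKi library was above every Acute one. Chronic exceeded Acute by 4.73 ± 0.23 (SE) on the log2 scale (limma adjusted p = 7.47e-11), a 25.7-fold ratio of means. With MEK inhibited the signal fell by 3.38 (limma adjusted p = 1.44e-08), and the remaining level was 1.35 above Acute (limma adjusted p = 0.000316). As a ratio of group means, its range across the groups was the widest of the 10 members.

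Pdcd1 encodes PD-1, the receptor for PD-L1 and PD-L2. Its signal was 350, 381 and 331 in Acute, 1826, 2374 and 2208 in Chronic, and 2369, 2414 and 2391 in ChronicMEKi libraries. The Chronic and ChronicMEKi libraries overlapped, and all 6 were at least 1826, above the Acute maximum of 381. Chronic exceeded Acute by 2.57 ± 0.13 (SE, limma adjusted p = 3.78e-11). The difference between ChronicMEKi and Chronic was 0.17, with a 95% interval from −0.11 to 0.45 (limma adjusted p = 0.456), so a fall as large as that of Tigit or Havcr2 lies outside the interval.

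Lag3, whose product binds MHC class II and other ligands, had a similar order of groups. Its signal was 220, 205 and 176 in Acute, 775, 1098 and 1001 in Chronic, and 1214, 757 and 978 in ChronicMEKi libraries. The ChronicMEKi libraries spanned the whole Chronic range. The gain of Chronic over Acute was 2.22 ± 0.20 (SE, limma adjusted p = 7.39e-08). ChronicMEKi differed from Chronic by 0.03, with an interval from −0.40 to 0.45 (limma adjusted p = 0.96). Cd4, the neighbouring gene of the same family, had means of 445 ± 57.3 in Acute, 236 ± 102 in Chronic and 114 ± 22.9 in ChronicMEKi (SD, n = 3).

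Tigit encodes a receptor for CD155 and related nectins. The Acute libraries gave 318, 263 and 279, the Chronic 743, 924 and 688, and the ChronicMEKi 425, 470 and 357. The 3 groups were separate, with ChronicMEKi in the middle. Chronic was 1.43 ± 0.20 above Acute (SE, limma adjusted p = 1.39e-05), and ChronicMEKi was lower than Chronic, with a log2 difference of −0.90 (limma adjusted p = 0.00302). The residual 0.53 over Acute missed the threshold (limma adjusted p = 0.057), and passed it only when genes under a signal of 200 were left out (adjusted p = 0.0451).

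Cd200r1, the receptor for the widely expressed glycoprotein CD200, had the smallest gain of the 5 genes that rose. Its signal was 130, 138 and 127 in Acute, 247, 464 and 242 in Chronic, and 174, 182 and 189 in ChronicMEKi libraries. The second Chronic library stood above its group mates, and no groups overlapped. The Chronic gain was 1.17 ± 0.29 (SE, limma adjusted p = 0.00406). It missed the threshold when scaled by library totals (0.69, adjusted p = 0.0645) or left on the deposited scale (0.71, adjusted p = 0.0574). The ChronicMEKi mean was below the Chronic one, with a log2 difference of −0.72 that did not pass the test (limma adjusted p = 0.103).

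Ctla4 went the opposite way. Its signal was 3740, 3226 and 4049 in Acute, 842, 925 and 1183 in Chronic, and 3715, 3562 and 4387 in ChronicMEKi libraries. The Acute and ChronicMEKi libraries overlapped, and all 6 lay above the Chronic maximum of 1183. Chronic was lower than Acute by a log2 difference of −1.90 (SE 0.13, limma adjusted p = 2.18e-09), and ChronicMEKi exceeded Chronic by 1.99 (limma adjusted p = 4.1e-09). ChronicMEKi and Acute differed by 0.08, with an interval from −0.20 to 0.36. Cd28 and Icos, costimulatory receptors that lie beside Ctla4 on chromosome 1, did not share this direction. Cd28 averaged 3221 ± 290 in Acute, 5006 ± 760 in Chronic and 1919 ± 164 in ChronicMEKi (SD, n = 3), and Icos averaged 5713 ± 387, 9098 ± 737 and 4956 ± 214. Cd28 was called higher in Chronic than in Acute (0.63, limma adjusted p = 0.000447). That call was lost by library totals (0.14, adjusted p = 0.434) and on the deposited scale (0.15, adjusted p = 0.373). Icos was called higher in Chronic than in Acute (0.67, limma adjusted p = 1.71e-05), although not when scaled by library totals or on the deposited scale, and lower in ChronicMEKi than in Chronic (−0.87, limma adjusted p = 1.62e-06).

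The start regions of Pdcd1, Havcr2 and Ctla4 are shown as those of members with unlike gene-body patterns across the 3 groups, and that of Cd160 because its signal appeared at the second of its starts. Each sequence is RefSeq's promoter window on GRCm38.p6, 250 bases before to 50 bases after the start, 5′ to 3′ on the gene's strand. Capitals mark matches on either strand to the core letters of factors named for T cell genes: AP-1 TGANTCA, the cAMP response element TGACGTCA, NFAT TGGAAA, ETS CCGGAA, NR4A AAGGTCA, TCF CTTTGAA and RUNX TGTGGT.
Pdcd1 (chr1:94052504-94052803, minus strand): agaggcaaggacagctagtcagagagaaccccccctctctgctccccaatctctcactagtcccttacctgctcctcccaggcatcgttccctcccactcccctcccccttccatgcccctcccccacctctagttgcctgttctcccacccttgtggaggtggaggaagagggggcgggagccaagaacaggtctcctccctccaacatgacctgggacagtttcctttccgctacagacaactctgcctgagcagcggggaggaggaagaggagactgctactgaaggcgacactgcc
Havcr2 (chr11:46454681-46454980, plus strand): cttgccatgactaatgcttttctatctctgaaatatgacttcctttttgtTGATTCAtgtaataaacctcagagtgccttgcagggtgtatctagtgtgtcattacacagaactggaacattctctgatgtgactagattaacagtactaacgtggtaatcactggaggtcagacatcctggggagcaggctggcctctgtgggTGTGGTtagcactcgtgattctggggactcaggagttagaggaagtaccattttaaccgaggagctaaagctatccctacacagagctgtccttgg
Ctla4 (chr1:60908775-60909074, plus strand): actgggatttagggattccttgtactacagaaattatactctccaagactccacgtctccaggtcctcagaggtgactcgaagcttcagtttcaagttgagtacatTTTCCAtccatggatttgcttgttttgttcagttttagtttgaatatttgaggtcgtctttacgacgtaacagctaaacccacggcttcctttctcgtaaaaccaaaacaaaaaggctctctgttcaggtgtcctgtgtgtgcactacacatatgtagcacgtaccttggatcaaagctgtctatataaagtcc
Cd160, second start (chr3:96814472-96814771, minus strand): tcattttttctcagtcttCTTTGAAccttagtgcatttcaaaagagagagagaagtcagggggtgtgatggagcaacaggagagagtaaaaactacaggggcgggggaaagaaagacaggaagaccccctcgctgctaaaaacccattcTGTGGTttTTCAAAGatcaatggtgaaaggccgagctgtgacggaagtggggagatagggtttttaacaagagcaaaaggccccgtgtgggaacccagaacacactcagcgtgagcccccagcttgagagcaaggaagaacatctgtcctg

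In the Havcr2 window the capitals are an AP-1 match 200 to 194 bases before the start and a RUNX match 46 to 41 bases before it. In the Ctla4 window they are an NFAT match on the reverse strand, 144 to 139 bases before the start. The Cd160 window at the second start holds TCF matches at 232 to 226 and, on the reverse strand, 93 to 87 bases before the start, and a RUNX match at 101 to 96. No match was found in the Pdcd1 window or in that of Vsir. Of 8 receptor genes with an entry, Tigit, Btla and the first start of Cd160 held a RUNX match and Cd244a an AP-1 match. Across 32851 promoter windows of this length, 7.81% held the AP-1 letters, 16.8% the RUNX, 21.4% the NFAT, 14.9% the ETS, 5.14% the TCF, 4.72% the NR4A and 1.79% the cAMP response element. A match is a description of letters and not a site of binding.

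Vsir encodes VISTA, a receptor of the B7 family found on resting T cells and myeloid cells. Its signal was 9064, 10713 and 7574 in Acute, 1876, 2282 and 1928 in Chronic, and 5389, 4405 and 5197 in ChronicMEKi libraries. The groups were separate, with ChronicMEKi between the others. Chronic was below Acute by a log2 difference of −2.16 (SE 0.12, limma adjusted p = 1.63e-10). ChronicMEKi exceeded Chronic by 1.30 (limma adjusted p = 4.01e-07) and was below Acute, at −0.86 (limma adjusted p = 3.9e-05). Vsir (chr10:60346851-60372684, plus strand) lies within Cdh23 (chr10:60302750-60696490, minus strand). The deposited signal per kilobase in the Vsir span was 30.9 to 59.4 times that in the rest of Cdh23 in each library.

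Cd160, a receptor for the herpesvirus entry mediator that the Tnfrsf14 gene encodes, gave 999, 1003 and 920 in Acute, 425, 314 and 516 in Chronic, and 1032, 958 and 721 in ChronicMEKi libraries. As for Ctla4, Acute and ChronicMEKi overlapped, and both stood above Chronic. The difference of Chronic from Acute was −1.24 ± 0.19 (SE, limma adjusted p = 5.07e-05), that of ChronicMEKi from Chronic was 1.11 (limma adjusted p = 0.000329), and that of ChronicMEKi from Acute was −0.12 (limma adjusted p = 0.691).

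Btla, another receptor for the herpesvirus entry mediator, had its own lowest level in ChronicMEKi. Its signal was 1637, 1547 and 1494 in Acute, 1011, 1032 and 901 in Chronic, and 715, 774 and 691 in ChronicMEKi libraries. The 3 groups were separate and in descending order. Chronic differed from Acute by −0.67 ± 0.13 (SE, limma adjusted p = 0.000623) and ChronicMEKi from Acute by −1.10 (limma adjusted p = 4.71e-06). The step from Chronic to ChronicMEKi, −0.43 (limma adjusted p = 0.0303), was not stable. It missed the threshold with library totals (adjusted p = 0.276) or the deposited scale (adjusted p = 0.304). It also missed it without Chronic replicate 1 (0.0724) or 2 (0.0907), or without ChronicMEKi replicate 1 (0.0831) or 3 (0.101).

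Cd244a encodes 2B4, a receptor for CD48 of the SLAM family. Its row with the largest signal was a long transcript annotated for nonsense-mediated decay (chr1:171559193-171609746, plus strand), which runs through Ly9 (chr1:171588624-171607410, minus strand). The deposited gene-body values summed signal over a span whatever the strand: in all 551 pairs of genes nested on opposite strands, the larger row held at least the signal of the smaller. The Ly9 row held 57.9 to 88.9% of the signal of the long Cd244a row, and the coding transcript of Cd244a (chr1:171559193-171585318) held 4.47 to 31.4%. The long row gave 1470, 1442 and 1683 in Acute, 811, 882 and 640 in Chronic, and 931, 850 and 949 in ChronicMEKi libraries. Its Chronic value was below Acute by a log2 difference of −0.98 (limma adjusted p = 3.69e-05), and that of Ly9 was below it by −1.37 (limma adjusted p = 1.86e-06). The coding row, taken after these values were seen, gave 82.5, 132 and 75.3 in Acute, 151, 278 and 178 in Chronic, and 142, 114 and 109 in ChronicMEKi libraries. There the Chronic libraries were above all Acute ones, by 1.02 ± 0.35 (SE, limma adjusted p = 0.0289). This call was lost without Acute replicate 1 (adjusted p = 0.0943), Acute replicate 3 (0.105) or Chronic replicate 2 (0.140), and with library totals (0.55, adjusted p = 0.209). ChronicMEKi differed from Chronic by −0.67 in the coding row (limma adjusted p = 0.219). Slamf6 and Cd48, further SLAM family genes at this locus, were both called lower in Chronic than in Acute, at −4.22 (limma adjusted p = 8.13e-09) and −0.79 (limma adjusted p = 1.65e-06).

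**Figure D2:**
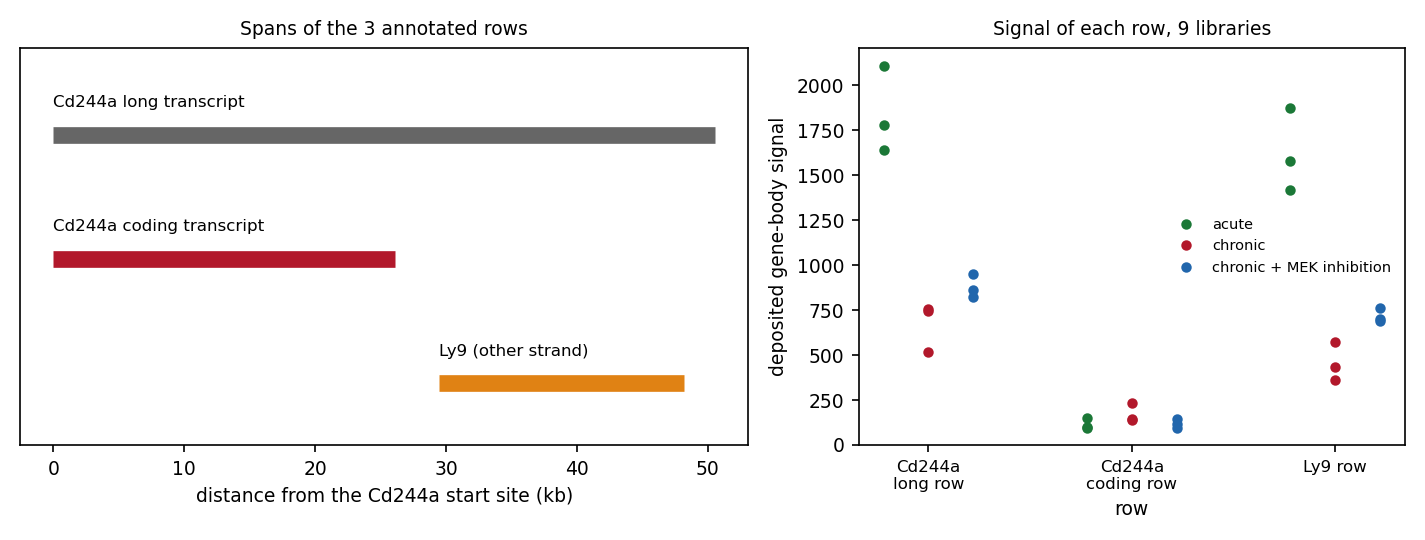
Left, the spans of the long Cd244a row, its coding row and Ly9, in kb from the Cd244a start; right, the deposited gene-body signal of these rows before scaling, 1 point per library, coloured by group. The long row follows Ly9, which holds 57.9 to 88.9% of it, whereas the coding row, at 94.3 to 235 on this deposited scale, is a small part of it.

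Between ChronicMEKi and Chronic, 3 members were called higher (Ctla4, Vsir and Cd160, background 8.54%) and 3 lower (Havcr2, Tigit and Btla, background 8.15%), so 6 of 10 changed against 16.7% of all tested genes. The groups did not overlap for 7 of 10, against 31.6% of all genes. Those that did overlap were Pdcd1, Lag3 and the long row of Cd244a. Against Acute, ChronicMEKi was called higher for Pdcd1, Lag3 and Havcr2 (3 genes, background 13.1%). It was called lower for Btla, Vsir and the long row of Cd244a (3 genes, background 12.5%), together 6 of 10 against 25.6%. The groups did not overlap for 8 of 10, again with the long row of Cd244a, against 41% of all genes, the exceptions being Ctla4 and Cd160. By its coding row, Cd244a in ChronicMEKi was 0.35 above Acute and not called (limma adjusted p = 0.507), and the groups overlapped. The 3 comparisons share libraries pairwise, so each member's values above are given side by side, and no agreement between comparisons was computed.

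**Figure D3:**
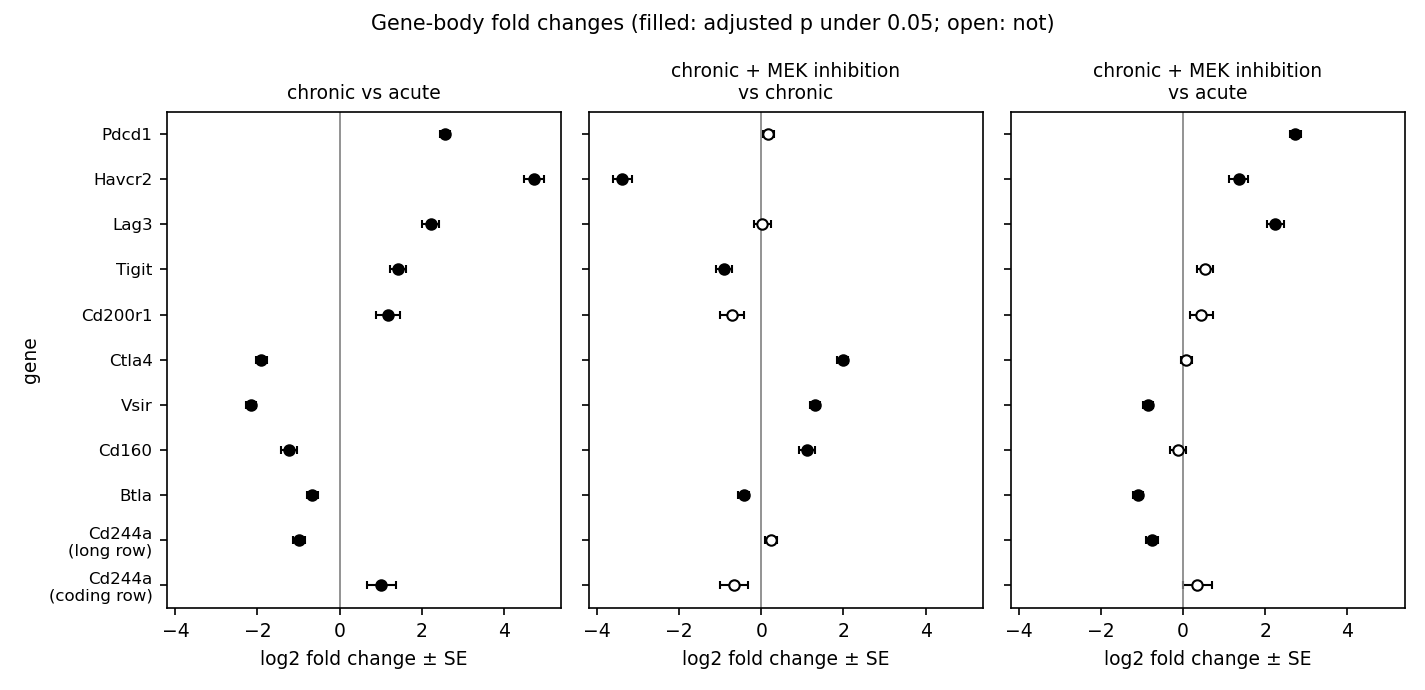
Log2 fold changes of gene-body signal for the 10 members (and the coding row of Cd244a) in the 3 comparisons, with limma's standard errors as bars; filled points passed an adjusted p of 0.05. Between ChronicMEKi and Chronic, Pdcd1 (0.17) and Lag3 (0.03) are open points near 0, Havcr2 (−3.38) lies furthest below 0 and Ctla4 (1.99) furthest above it.

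The order of the receptor genes by gene-body signal per kilobase of annotated span differed between the groups. In Acute, Ctla4 (539) and Vsir (353) stood above Btla (54.6), Cd160 (31.8), Lag3 (27.3), Pdcd1 (24.9), Tigit (18.8), Havcr2 (7.24), Cd200r1 (4.50) and the coding row of Cd244a (3.70). Neighbours in that order overlapped for Lag3 and Pdcd1, and among Havcr2, Cd200r1 and Cd244a. In Chronic, Havcr2 led at 186, above the range of every other member, and Pdcd1 (149.9), Ctla4 (144) and Lag3 (130.4) overlapped one another. Vsir (78.5), Tigit (51.3), Btla (34.3), Cd160 (13.7), Cd200r1 (10.9) and Cd244a (7.74) followed, of which only Cd160, Cd200r1 and Cd244a overlapped a neighbour in the order. In ChronicMEKi, Ctla4 (571) again led, ahead of Vsir (193), Pdcd1 (168) and Lag3 (134). Cd160 (29.5), Tigit (27.3) and Btla (25.4) overlapped, Havcr2 stood at 17.7, and Cd200r1 (6.21) and Cd244a (4.67) were lowest. These are levels per length, and the exact limits of the measured regions are not given in the sources used here.

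Near the start, 7 of the 10 members had enough pause-region signal to be tested among 7678 genes. Cd160, Cd200r1 and Cd244a did not. Havcr2 passed the filter only through its 3 Chronic libraries, so its difference there follows from the filter. Tigit passed through 2 Chronic and 2 ChronicMEKi libraries and 0 Acute ones. Between Chronic and Acute, Pdcd1, Havcr2 and Lag3 were called higher (3 genes, background 5.22%) and Ctla4 and Vsir lower (2 genes, background 5.43%). Between ChronicMEKi and Chronic, Ctla4 was called higher (1 gene, background 1.58%) and Havcr2 lower (1 gene, background 1.38%). Between ChronicMEKi and Acute, Pdcd1 and Lag3 were called higher (2 genes, background 3.33%) and Vsir lower (1 gene, background 2.51%), a call lost under several alternatives given below. In either direction the calls were 5 of 7 against 10.7% of tested genes, 2 of 7 against 2.96% and 3 of 7 against 5.85%. The groups did not overlap for 6, 2 and 5 of the 7 in these comparisons, against 24.3%, 20.3% and 24.6% of tested genes. Havcr2 is among the 5 and the 2 called and among the 6 and the 2 without overlap, although the filter fixed its difference. Tigit is among the 6 and the 5 without overlap. Because the filter itself keeps genes that are high in 1 group, these shares are descriptions only.

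The pause-region signal of Ctla4 was 616, 450.1 and 886 in Acute, 184, 251 and 222 in Chronic, and 620, 611 and 756 in ChronicMEKi libraries. The Chronic libraries were again the lowest, at −1.51 against Acute (limma adjusted p = 2.61e-05), and ChronicMEKi exceeded them by 1.58 (limma adjusted p = 3.71e-05). Lag3 gave 32.8, 42.7 and 13.9, then 131, 257 and 216, then 270 (269.7), 151 and 206, with a Chronic gain of 2.62 (limma adjusted p = 1.13e-05). Pdcd1 gave 20.4, 67.6 and 43.8, then 162, 151 and 217, then 187, 159 and 200 (199.9), with a 95% interval of the Chronic gain from 1.28 to 2.73 (limma adjusted p = 0.000231). For both genes the 6 libraries under chronic stimulation, with or without MEK inhibition, were above the 3 Acute ones. Vsir gave 278, 350.5 and 286, then 122, 49.0 and 63.1, then 198, 139 and 104, and ChronicMEKi was below Acute by a log2 difference of −1.07 that only just passed (limma adjusted p = 0.0469). That call was lost with no filter (adjusted p = 0.246), a filter of 200 (0.0508), a pseudocount of 0.5 (0.0574), the deposited scale (0.178), totals without ribosomal RNA-like rows (0.109) and plain limma (0.151). It was also lost without Acute replicate 1 (0.0964), 2 (0.126) or 3 (0.0873) and without ChronicMEKi replicate 2 (0.137) or 3 (0.231).

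For Havcr2 the readouts gave different calls between ChronicMEKi and Acute. Its pause-region signal was 15.9, 1.19 and 14.9 in Acute, 118, 166 and 168 in Chronic, and 7.40, 12.8 and 1.91 in ChronicMEKi libraries. ChronicMEKi and Acute overlapped here, with a difference of −0.25 and an interval from −1.76 to 1.26, whereas in the gene body ChronicMEKi was 1.35 above Acute. The difference between the readouts did not pass its own test (below). In the pause region 0 Acute and 0 ChronicMEKi libraries reached 50, the minimum of the filter. The value of −0.25 therefore compares weak signal and is not read as a disagreement with the gene body. Cd160 had no more than 3.61 of deposited pause-region signal in any library at the start of the row used. At the start of its shorter transcript (chr3:96800155-96814521, minus strand), whose promoter is printed above, the deposited values were 10.1, 20.6 and 5.10 in Acute, 5.30, 1.03 and 7.38 in Chronic, and 34.2, 49.9 and 38.8 in ChronicMEKi libraries. All 3 ChronicMEKi libraries were above the other 6, at levels too low for the test.

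**Figure D4:**
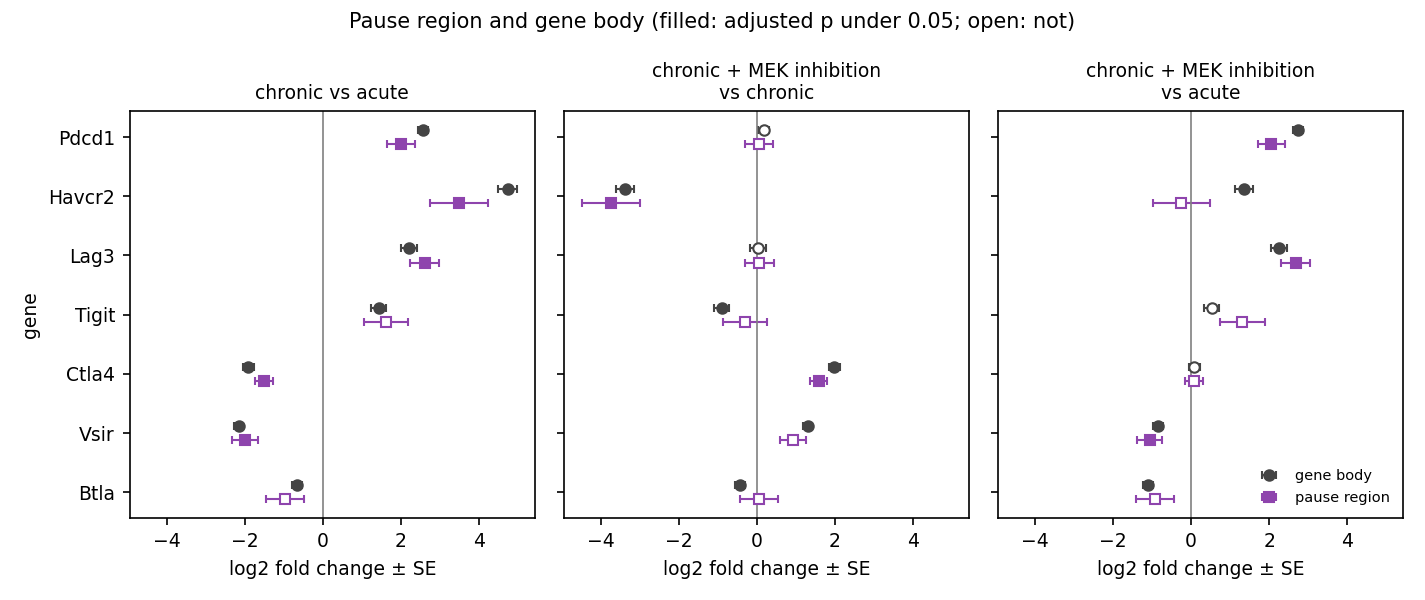
Log2 fold changes in the gene body (circles) and the pause region (squares) for the 7 members tested in both, 1 panel per comparison, with limma's standard errors as bars; filled points passed an adjusted p of 0.05. Between ChronicMEKi and Acute, Havcr2 stands at 1.35 in the gene body and −0.25 near the start, where both groups lie below the filter's minimum of 50.

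The difference of pause-region from gene-body log2 signal, a measure of how much signal stays near the start, was tested over 7413 genes. In none of the 3 comparisons was any gene called by limma, a background of 0%, nor without trend or robust moderation. In simulated data this test called 13% of changes of 1 and 71% of changes of 2 on the log2 scale. Each amount was given to 100 genes there, and the rest were left unchanged. Unadjusted p under 0.05 was reached by 738 genes between Chronic and Acute, 396 between ChronicMEKi and Chronic, and 571 between ChronicMEKi and Acute. Havcr2, which entered this test only through its Chronic libraries, differed by −1.25 for Chronic against Acute (limma adjusted p = 0.341) and by −1.61 for ChronicMEKi against Acute (limma adjusted p = 0.547). With a pseudocount of 20 the former became a call (−2.12, adjusted p = 0.00275). Because of the filter, neither value is read as a difference in pausing.

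For 5 of the receptors, the genes with the most similar pattern over the 9 libraries were found by the root mean square difference of centred log2 signal among 10636 genes. Nearest to Pdcd1 were Gcnt1 (0.18), Rhob (0.26) and E2f8 (0.27), against a median of 1.28 over all candidates. Nearest to Lag3 were Lrr1 (0.18), Pclaf (0.19) and Gcnt1 (0.20), with a median of 1.09. Nearest to Havcr2 were Csf2 (0.28), the gene of the cytokine GM-CSF, Prf1 (0.37), the gene of perforin, and Adamts14 (0.50), with a median of 2.02. Nearest to Tigit were Fam129a (0.11), Ell2 (0.14) and Crebl2 (0.15), with a median of 0.66. Nearest to Ctla4 were Rnf144a (0.23), Itga6 (0.23) and Igtp (0.25), with a median of 0.98.

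Of 15 genes for ligands of these receptors, 13 were tested. In Chronic against Acute, 5 were called higher (background 17.9%) and 5 lower (background 15.4%). Transcripts of both PD-1 ligands rose in these T cells: Cd274 averaged 3873 ± 132 in Acute, 8126 ± 588 in Chronic and 3855 ± 52.8 in ChronicMEKi (SD, n = 3), and Pdcd1lg2 averaged 1056 ± 63.9, 2575 ± 61.2 and 806 ± 81.8. Chronic exceeded Acute by 1.07 for Cd274 (limma adjusted p = 2.79e-08) and by 1.28 for Pdcd1lg2 (limma adjusted p = 1.78e-07). Cd274 was thus lower in ChronicMEKi than in Chronic, at −1.07 (limma adjusted p = 7.41e-08), while Pdcd1 differed by 0.17. Of the ligands of TIM-3 and LAG-3, Lgals9, for galectin-9, was lower in Chronic (−1.87, limma adjusted p = 2.62e-07) and Lgals3, for galectin-3, was higher (3.59, limma adjusted p = 9.18e-10). Cd86, a ligand of CTLA-4 and CD28, fell by 3.57 (limma adjusted p = 3.32e-07) to a Chronic mean of 28.1 ± 8.52 (SD, n = 3). Tnfrsf14, for the ligand shared by BTLA and CD160, was lower in Chronic (−1.08, limma adjusted p = 0.00129) and higher in ChronicMEKi than in Chronic (0.99, limma adjusted p = 0.0055). In ChronicMEKi against Chronic, 4 of the 13 were called higher (background 8.54%) and 3 lower (background 8.15%).

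Of 16 signalling partners tested (of 17 listed), 2 were called higher (background 17.9%) and 6 lower (background 15.4%) in Chronic than in Acute. By library totals the counts were 1 and 10. No background is given here for counts by library totals, a scaling that moved the median gene by −0.49. The adaptor Dok2 rose by 1.12 (limma adjusted p = 7.43e-07), or by 0.76 in its longest transcript row, where it missed the threshold (adjusted p = 0.0686). The kinase Fyn (−1.52, limma adjusted p = 4.19e-09) and the RAS inhibitor Rasa1 (−1.22, limma adjusted p = 5.98e-09) were lower. Of 12 activating counterparts, 5 were called higher and 5 lower in Chronic (backgrounds 17.9% and 15.4%), or 2 and 7 by library totals. Tnfrsf9, the gene of the costimulatory receptor 4-1BB, rose by 2.96 (limma adjusted p = 6.02e-14), and Tnfrsf4, that of OX40, by 1.30 (limma adjusted p = 5.05e-08). Of 12 other inhibitory receptors tested (of 15 listed), 2 were called higher (background 17.9%) and 6 lower (background 15.4%) in Chronic than in Acute. By library totals the counts were 2 and 8. Klrc1, for the receptor NKG2A, averaged 147 ± 33.7 in Acute, 941 ± 101 in Chronic and 49.1 ± 11.2 in ChronicMEKi (SD, n = 3), and ChronicMEKi was below Chronic by a log2 difference of −4.14 (limma adjusted p = 5.08e-09). Lilrb4a was likewise higher in Chronic (1.24, limma adjusted p = 1.59e-05) and lower in ChronicMEKi than in Chronic (−2.39, limma adjusted p = 1.57e-08).

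Of 27 transcription factor genes named for control of these receptors, 25 were tested. In Chronic against Acute, 11 were called higher (background 17.9%) and 11 lower (background 15.4%). By library totals the counts were 7 and 13. That scaling moved the median gene by −0.49, and no background is given for it, so these 2 counts are not read as a tilt. Egr2 rose from 177 ± 21.2 in Acute to 2091 ± 335 in Chronic and stood at 190 (189.6) ± 48.4 in ChronicMEKi (SD, n = 3), with a Chronic gain of 3.52 (limma adjusted p = 5.58e-10). Prdm1, the gene of the repressor Blimp-1, rose by 2.80 (limma adjusted p = 9.24e-11) and Batf by 2.44 (limma adjusted p = 3.7e-10). Both were lower in ChronicMEKi than in Chronic, Prdm1 at −1.85 (limma adjusted p = 7.41e-08) and Batf at −1.50 (limma adjusted p = 6.92e-07). Id3 (−3.21, limma adjusted p = 6.87e-10) and Tcf7 (−2.03, limma adjusted p = 9.27e-09), genes linked to memory-like T cells, were lower in Chronic than in Acute, and in ChronicMEKi they exceeded Chronic by 2.87 (limma adjusted p = 1.01e-08) and 1.53 (limma adjusted p = 1.05e-06). In ChronicMEKi against Chronic, 8 of the 25 were called higher (background 8.54%) and 9 lower (background 8.15%).

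Of 14 genes read as output of the MEK-ERK cascade, 12 were called lower (background 8.15%) and 0 higher (background 8.54%) in ChronicMEKi than in Chronic. Their median was −1.90, beside 0.01 for all tested genes. Spry1 (−0.46, limma adjusted p = 0.176) and Spred2 (−0.38, limma adjusted p = 0.0686) did not pass the test. In Chronic against Acute, 8 of the 14 were called higher (background 17.9%) and 2 lower (background 15.4%). By library totals the counts were 7 and 4, again without a background for that scaling. The 10 receptor genes had a median of 0.10 between ChronicMEKi and Chronic, from −3.38 for Havcr2 to 1.99 for Ctla4. That median uses the long row of Cd244a (0.24), and would be lower with its coding row (−0.67).

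**Figure D5:**
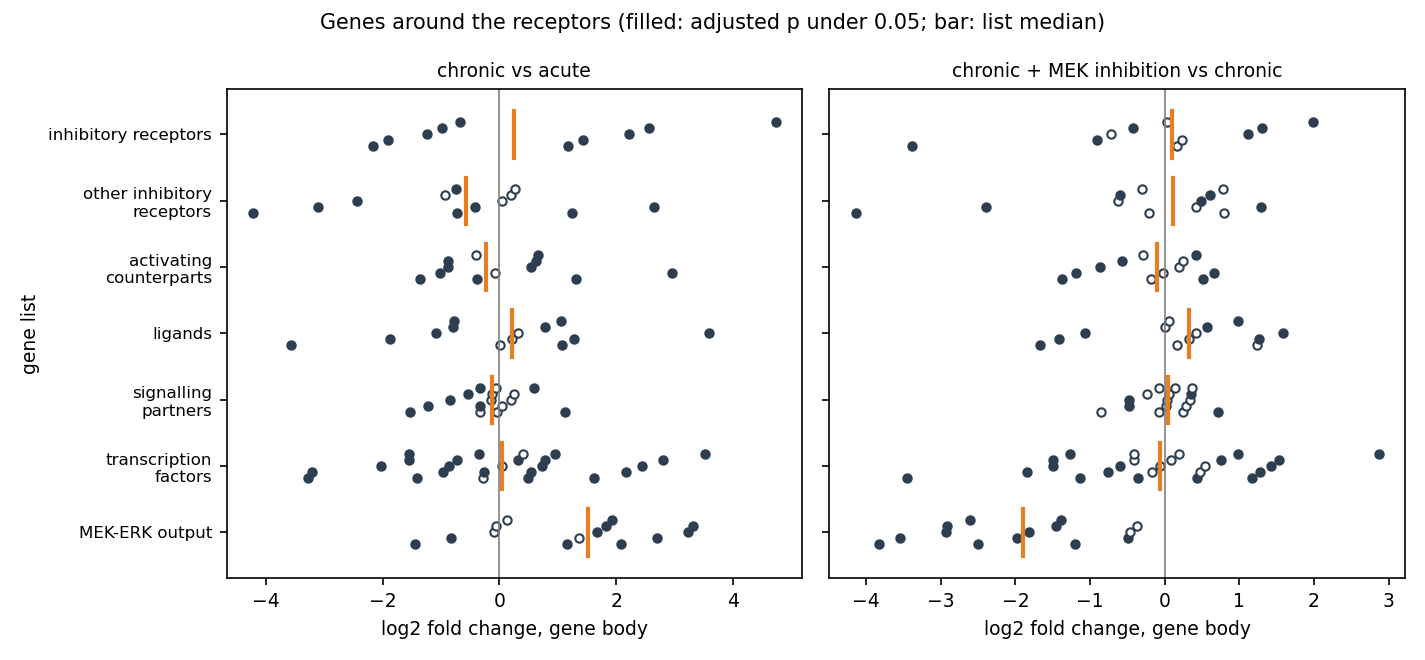
Log2 fold changes of gene-body signal by gene list, 1 point per tested gene (filled where the adjusted p was under 0.05) and a bar at each list's median, for Chronic against Acute and ChronicMEKi against Chronic. MEK-ERK output genes centre on −1.90 between ChronicMEKi and Chronic. The receptor genes, with Cd244a by its long row, spread from −3.38 to 1.99 around a median of 0.10.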

How the data were processed

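Nascent RNA of 9 mouse CD8 T cell libraries was measured by 5-ethynyl uridine capture and paired reads of 100 bases. The authors deposited signal per transcript in a gene-body and a pause-region table of 118482 rows each, with 1 scale factor per library. The submitters' processing notes name mm10, Trim Galore 0.6.10, STAR 2.7.0a, SAMtools 1.19.2 and deepTools 0.1.9, without their roles. The region limits, the counting step and its use of strand are not given in the sources used here. All 18 columns were mapped by name to a sample.

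Rows were matched to GENCODE M21 (GRCm38, the same build) by transcript identifier: 117346 with version, 383 without, and 753 not at all. The members and gene lists were chosen with earlier results of these data known. Scale factors came from a trimmed mean without weights, made separately for both tables (30% of log ratios and 5% of levels trimmed). Genes that reached a deposited signal of 50 in 3 or more libraries were kept, and log2(signal + 5) was fitted with limma 3.58.1 (trend, robust; R 4.3.3, statmod 1.5.0) on all 9 libraries. Fold changes are on the log2(signal + 5) scale, which understates those of weak genes. P-values were adjusted by Benjamini and Hochberg over all genes tested, with a threshold of 0.05. The steps were tested on simulated data with normal noise, in which 100 genes were changed by each amount and the rest left unchanged. In the real gene body 33.3% of genes were called between Chronic and Acute, so the shares below may not hold for the real tests. Of changes of 1 on the log2 scale, 56% were called in the gene body, 22% in the pause region and 13% in pausing. Of changes of 2, the shares were 86%, 64% and 71%. False calls made up 7.19%, 2.27% and 4.55% of all calls. Tables were made with Python 3.11.15, pandas 2.3.3 and numpy 2.4.6.

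All members were named. From the other lists, the text names genes among the 3 largest called rises and falls of a comparison, genes beside a member, and the 3 genes most like each of 5 members. Ly9, Spry1, Spred2 and Cd8a, among others given for context, were named after their values were seen. The main fit used no pairing by replicate number, and what same-numbered libraries share is not given in the sources used here. Alternatives were the pseudocount, the filter, the scaling, the transcript row, fewer groups in the fit, a replicate block, plain limma and leaving out each library. Genes on the sex chromosomes were not analysed here, and some marker genes of other cell types are not reported here.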

Additional observations from a re-analysis of the deposited data

How the results depend on the processing

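The number of libraries, 3 per group, limits the precision, and the depth in reads is unknown. In the gene body, the number of members called between Chronic and Acute ranged over the alternatives from 4 to 6 higher and 4 to 5 lower, between ChronicMEKi and Chronic from 3 to 3 and 2 to 3, and between ChronicMEKi and Acute from 3 to 4 and 2 to 3. Of 378 such counts under an alternative, all readouts included, 357 stayed within 1.5 times the main count and 21 moved. The 378 include the pausing counts, whose main count was 0 in every comparison, so that these says little about how stable the calls are. Of the values of single members, 1438 kept their side of the threshold, 28 lost and 5 gained the call, and 2 reversed. A reversal was counted only where the main or the alternative fit was called. The 1438 therefore include changes of sign among values that were not called. Lag3, for example, ran from −0.14 to 0.20 in the gene body between ChronicMEKi and Chronic, and Cd244a from −0.67 to 0.40. Both reversals are Cd244a read by its protein-coding row, an alternative chosen after seeing the data, and that row leaves out the span of Ly9. Its values were 1.02 between Chronic and Acute (limma adjusted p = 0.0289) and 0.35 between ChronicMEKi and Acute (limma adjusted p = 0.507). The latter was not a call. In the pause region between Chronic and Acute, 0 members in place of 3 were higher with a filter of 200, and 1 in place of 2 lower with the longest row. Between ChronicMEKi and Chronic, 0 in place of 1 were higher with the longest row and 0 in place of 1 lower with the filter of 200. Leaving out 1 library gave 1 to 2 higher there (Vsir added without Chronic replicate 1) and 0 to 1 lower, 0 without any one Chronic library because Havcr2 then fails the filter. Between ChronicMEKi and Acute, 0 in place of 2 were higher with the filter of 200, and the single lower call (Vsir) became 0 with a pseudocount of 0.5, no filter, a filter of 200, the deposited scale, totals without ribosomal RNA-like rows, or plain limma, and 0 to 1 when 1 library was left out. For pausing between Chronic and Acute, a pseudocount of 20 gave 1 lower member (Havcr2, −2.12, adjusted p = 0.00275) in place of 0. Same-numbered libraries did not deviate together (correlations from −0.534 to 0.0981), while Acute replicate 2 and ChronicMEKi replicate 1 reached 0.513. Deviations from means of 3 libraries cannot show whether libraries share a mouse or a batch, so pairing is not settled. A fit with a replicate block left 5 higher and 5 lower, 3 and 3, and 3 and 3 members called in the gene body. Apart from the filter, which sets the genes that are tested, the cause of these shifts was not tested.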
